A study of Mus musculus with 13 samples.

Results

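The surface proteins by which early blood progenitors are recognized are encoded by Flt3, Kit, Ly6a, Cd34, Cd27, and Cd93. These 6 genes were taken by symbol from the 24972 genes in the deposited tables, and each symbol was found in both tables. They were followed in RNA-Seq libraries of common lymphoid progenitors (CLPs) from the BM of 13 mice. Of these mice, 5 were WT, 5 were Notch1+/-, and 3 were Notch1+/ΔTAD. All were adult C57BL/6 mice aged 6 to 12 weeks, and each gave 1 library. A Notch1+/- mouse has 1 functional Notch1 allele. In a Notch1+/ΔTAD mouse, 1 Notch1 allele lacks the transactivation domain and the other is WT. Both changes are germline, so every cell of the mouse carries them. The comparison of WT with each mutant, and of the mutants with each other, asks whether CLP RNA differs with a lost Notch1 allele or with an allele that has lost this domain.

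CLPs are BM cells that can give rise to B, T, and NK cells. FLT3 and KIT are receptor tyrosine kinases, which bind FLT3 ligand and stem cell factor and signal through adaptors, PI3K, and STAT5 to promote survival and division. KIT is high on hematopoietic stem cells and low on CLPs, whereas FLT3 marks multipotent progenitors that are turning toward the lymphoid lineages. Ly6a encodes Sca-1, a small protein held at the membrane by a lipid anchor. CD34 is a sialomucin and CD93 a C-type lectin-like receptor, and both are also known from endothelial cells. CD27 is a receptor of the TNF receptor family for CD70 and is found on lymphoid progenitors and lymphocytes.

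The cells were sorted as DAPI-, lineage-, Sca1 low, cKit low, CD127+, and CD135+. The proteins of 3 of the 6 genes were therefore used to choose the cells, namely FLT3 (CD135), KIT (cKit), and Ly6a (Sca1), as was that of Il7r (CD127), the IL-7 receptor α chain. The measurements below are of RNA, which was read as strand-specific tags from the 3′ ends of transcripts. Values are in TPM (transcript abundance) scaled so that each library sums to 1000000. No read counts were analyzed, so depth is unknown and precision could be judged only from the spread between mice. Between 3264 and 6326 genes were above 0 TPM in a library. For comparison with the 6 genes, 10149 genes had a value above 0 somewhere, and 772 of these (7.61%) had a value in all 13 libraries. Genes that all cells use were at 0 in places: Gapdh in 2 libraries, Hprt in 3, Polr2a in 3, and Tbp in 9, whereas Actb was between 1051 and 3772 TPM in all 13. A value of 0 is therefore given here only as what the table lists. In bulk RNA, fewer cells with a transcript and less of it per cell cannot be told apart.

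The CLP label was checked against 8 CLP genes, and Dntt, Ly6d, Satb1, and Flt3 were above 0 in every library. Of the recombinase genes, Rag1 was above 0 in 11 libraries (median 7.11 TPM) and Rag2 in 6 (median 0). Dntt, which encodes terminal deoxynucleotidyl transferase, was between 2095 and 9616 TPM. Il7r was above 0 in 12 of 13 libraries and listed at 0 in Notch1+/- library 6. Library 6 also had the lowest Flt3 of all libraries, at 5.21 TPM, the fewest genes above 0, and Kit, Ly6a, and Cd27 at 0. Its Dntt was the highest of all libraries at 9616 TPM, and its Cd34 was 612 TPM and its Cd93 229 TPM. Results that rest on this library are given with and without it. Among markers of other cells, 6 of 7 endothelial genes, Cdh5 and Kdr among them, were listed at 0 in all 13 libraries. The exception was Pecam1, which leukocytes also express, at 0 to 155 TPM. Of 8 genes of stem cells and multipotent progenitors, 4 were at 0 throughout, Procr, Gata2, and Slamf1 among them. Hoxa9 was above 0 in 11 libraries (median 27.6 TPM), Meis1 in 9 (up to 186 TPM), Hlf in 5 (up to 66.9 TPM), and Mecom in 1. The summed level of the 8 was 3.02 to 239.8 TPM. The summed level of 9 myeloid genes was 436 to 2067 TPM in WT, 212 to 1257 TPM in Notch1+/-, and 272 to 1773 TPM in Notch1+/ΔTAD libraries. For 8 B lineage genes these ranges were 158 to 1866, 154 to 2043, and 117 to 1667 TPM, led by Vpreb1, Blnk, and Igll1, and for 6 dendritic cell genes, led by Bst2 and Siglech, they were 144 to 1537, 212 to 822, and 65.5 to 1720 TPM. Within that list, Clec9a, a marker of conventional dendritic cells named after its values were seen, was 39.3, 11.1, and 41.2 TPM in Notch1+/ΔTAD libraries 7, 9, and 14 and listed at 0 in the other 10 libraries (limma unadjusted p = 0.00208 and adjusted p = 0.418 against WT, and 0.000122 and 0.192 against Notch1+/-). Clec9a reached the minimum for testing, 1 TPM in 3 libraries, only through these Notch1+/ΔTAD libraries. That minimum selects for such a pattern, so the p-values of Clec9a are no support for a difference. Of 6 erythroid genes 5 were at 0 throughout, as were 5 of 8 T and NK cell genes, Cd3e and Cd8a among them, although Nkg7 reached 1122 TPM. The part of such cells in the values of the 6 genes was not tested.

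The 6 genes fell into 3 kinds by how regularly they were listed. Flt3, Cd34, and Cd93 were above 0 in all 13 libraries. Cd27 was above 0 in 11, and at 76.0 TPM or more in each of those. Kit was above 0 in 8 libraries and reached 1 TPM in 6, and Ly6a was above 0 in 5. All 6 were above 0 together in 3 libraries, WT library 10, Notch1+/- library 12, and Notch1+/ΔTAD library 14. These were also the only 3 libraries in which all 4 genes of the sort (Flt3, Kit, Ly6a, and Il7r) were above 0. WT library 2 and Notch1+/- library 6 listed 3 of the 6 genes, and the remaining 8 libraries listed 4 or 5. Summed, the 6 genes made up 0.0426% to 0.239% of a library.

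**Figure D1:**
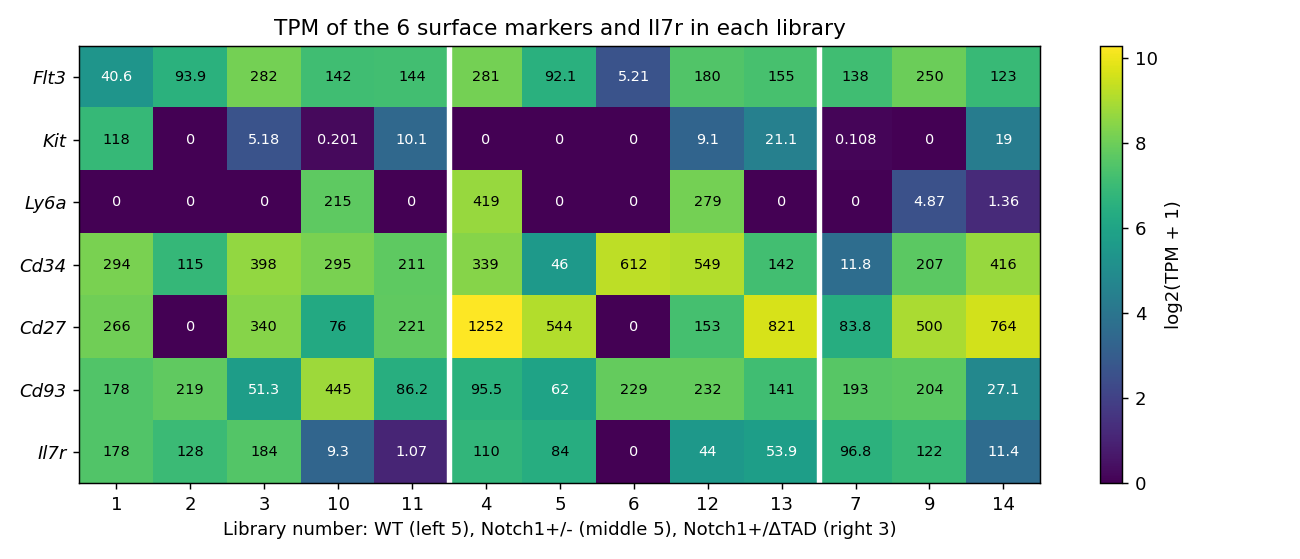
TPM of Flt3, Kit, Ly6a, Cd34, Cd27, Cd93, and Il7r (rows) in each of 13 libraries (columns, by library number, with WT, Notch1+/-, and Notch1+/ΔTAD separated by white lines). Color is log2(TPM + 1), and the printed number is the TPM as deposited. Flt3, Cd34, and Cd93 are above 0 in all 13 libraries, whereas Kit and Ly6a are at 0 in 5 and 8 libraries.

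Flt3 was above 0 in every mouse, and its levels did not separate the genotypes. The gene lies on chromosome 5 of GRCm38 (chr5:147330741-147400489, minus strand), has 24 exons and a 3′ UTR of 433 bases, and is overlapped on the other strand by the antisense gene Gm26597. WT libraries 1, 2, 3, 10, and 11 had 40.6, 93.9, 282, 142, and 144 TPM. Notch1+/- libraries 4, 5, 6, 12, and 13 had 281, 92.1, 5.21, 180, and 155 TPM, and Notch1+/ΔTAD libraries 7, 9, and 14 had 138, 249.9, and 123 TPM. All 3 Notch1+/ΔTAD values lay within the WT range, and so did every Notch1+/- value except that of library 6. The mean of log2(TPM + 1) was 6.89 ± 1.02 (SD, n = 5) in WT, 6.42 ± 2.19 (SD, n = 5) in Notch1+/-, and 7.35 ± 0.55 (SD, n = 3) in Notch1+/ΔTAD libraries. Leaving out library 6 turned the difference of Notch1+/- from WT, on the log2 scale, from -0.47 (SE 1.13) to 0.48 (SE 0.90). In its ranking within a library, Flt3 stood at a median place of 965 from the top and among the first 1000 genes in 7 libraries.

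Kit, the other receptor tyrosine kinase of the sort, was low or not listed in most mice. Kit lies on the same chromosome (chr5:75574916-75656722, plus strand), with 21 exons and a 3′ UTR of 2180 bases, and no annotated gene overlaps it. WT libraries 1, 2, 3, 10, and 11 had 118, 0, 5.18, 0.201, and 10.1 TPM. Notch1+/- libraries 4, 5, and 6 were listed at 0, and libraries 12 and 13 had 9.1 and 21.1 TPM. Notch1+/ΔTAD libraries 7, 9, and 14 had 0.108, 0, and 19.0 TPM. WT library 1 alone exceeded 21.1 TPM. The other WT libraries reached 10.1 TPM, and each genotype had at least 1 library at 0, so the groups overlapped. Flt3 was higher than Kit in 12 of 13 libraries, WT library 1 being the exception with 118 TPM of Kit and 40.6 TPM of Flt3. Kit also varied with the library number, which is not given as a batch in the labels, where all libraries are described as prepared in a single batch. It was above 0 in 5 of 5 libraries numbered 10 to 14 and in 3 of 8 numbered 1 to 9, and both ranges hold all 3 genotypes. The number of genes above 0 was 3744 to 6326 (median 4747) in the first of these ranges and 3264 to 4973 (median 3886) in the second, and the part of this number in the Kit values was not tested.

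Ly6a was listed at 0 in most mice and was high in a few. It lies on chromosome 15 (chr15:74994877-74998031, minus strand), with 4 exons and a 3′ UTR of 387 bases. In WT it was listed at 215 TPM in library 10 and at 0 in the other 4 libraries. In Notch1+/- it had 419 TPM in library 4 and 279 TPM in library 12 and was at 0 in libraries 5, 6, and 13. Notch1+/ΔTAD libraries 7, 9, and 14 had 0, 4.87, and 1.36 TPM. Thus 3 libraries of 2 genotypes were at 215 TPM or more and the remaining 10 were at 4.87 TPM or less. Ly6a belongs to a multigene family whose members resemble each other in sequence, so reads may be shared between them and its values are uncertain. Of its nearest relatives, Ly6c1, Ly6f, Ly6g, and Ly6i were listed at 0 in all 13 libraries, and Ly6c2 was above 0 in 4.

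Cd34 was among the more abundant of the 6 genes in every genotype. The gene is on chromosome 1 (chr1:194938819-194961279, plus strand), with 8 exons and a 3′ UTR of 1488 bases, and an antisense gene, Gm16897, overlaps it. Its level was 294, 115, 398, 295, and 211 TPM in WT libraries 1, 2, 3, 10, and 11. In Notch1+/- libraries 4, 5, 6, 12, and 13 it was 339, 46.0, 612, 549, and 142 TPM, and in Notch1+/ΔTAD libraries 7, 9, and 14 it was 11.8, 207, and 416 TPM. The lowest 2 values of all libraries were in a Notch1+/ΔTAD mouse and a Notch1+/- mouse, and the highest 2 were both in Notch1+/- mice. Highest over lowest, the ratio of TPM was 3.46 in WT, 13.3 in Notch1+/-, and 35.3 in Notch1+/ΔTAD libraries. Mean log2(TPM + 1) was 7.93 ± 0.68 (SD, n = 5), 7.90 ± 1.55 (SD, n = 5), and 6.69 ± 2.66 (SD, n = 3), respectively. The lower mean of Notch1+/ΔTAD libraries rests on library 7. Without it the log2 difference from WT went from -1.23 (SE 1.12) to 0.27 (SE 0.85).

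Cd93 was present in every mouse, at levels that overlapped between the genotypes. It lies on chromosome 2 (chr2:148436640-148443563, minus strand) and has 2 exons and the longest 3′ UTR of the 6 genes, 4606 bases. WT libraries 1, 2, 3, 10, and 11 had 178, 219, 51.3, 445, and 86.2 TPM. Notch1+/- libraries 4, 5, 6, 12, and 13 had 95.5, 62.0, 229, 232, and 141 TPM, and Notch1+/ΔTAD libraries 7, 9, and 14 had 193, 204, and 27.1 TPM. All Notch1+/- values lay inside the WT range, and of the Notch1+/ΔTAD values only that of library 14 lay below it. The ratio of the highest to the lowest TPM over 13 libraries was 16.4 for Cd93, 51.8 for Cd34, and 54.2 for Flt3. Without Notch1+/- library 6 it was 16.4, 46.6, and 6.96, so the place of Flt3 in this order rests on that library. On the log2(TPM + 1) scale the means were 7.24 ± 1.20 (SD, n = 5) in WT, 7.09 ± 0.82 (SD, n = 5) in Notch1+/-, and 6.70 ± 1.63 (SD, n = 3) in Notch1+/ΔTAD libraries.

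Cd27, the TNF receptor family member, had the highest single value of the 6 genes and also gave 0 in 2 mice. It is found on chromosome 6 (chr6:125232622-125237010, minus strand), with 6 exons and a 3′ UTR of 691 bases. The whole gene lies inside Vamp1, which is on the other strand, and Mir8113 lies within Cd27 on the same strand. Whether the authors used strand to assign reads is not given in the sources used here, so the values of Cd27, Flt3, and Cd34 are uncertain to that extent. This applies least to Flt3, whose overlap lies at the 5′ end of the gene, whereas the tags are read from 3′ ends. WT libraries 1, 2, 3, 10, and 11 had 266, 0, 340, 76.0, and 221 TPM. Notch1+/- libraries 4, 5, 6, 12, and 13 had 1252, 544, 0, 153, and 821 TPM, and Notch1+/ΔTAD libraries 7, 9, and 14 had 83.8, 499.5, and 764 TPM. The highest WT value was 340 TPM, and 5 of the 8 mutant values lay above it and 3 below it. The groups overlapped in all comparisons.

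**Figure D2:**
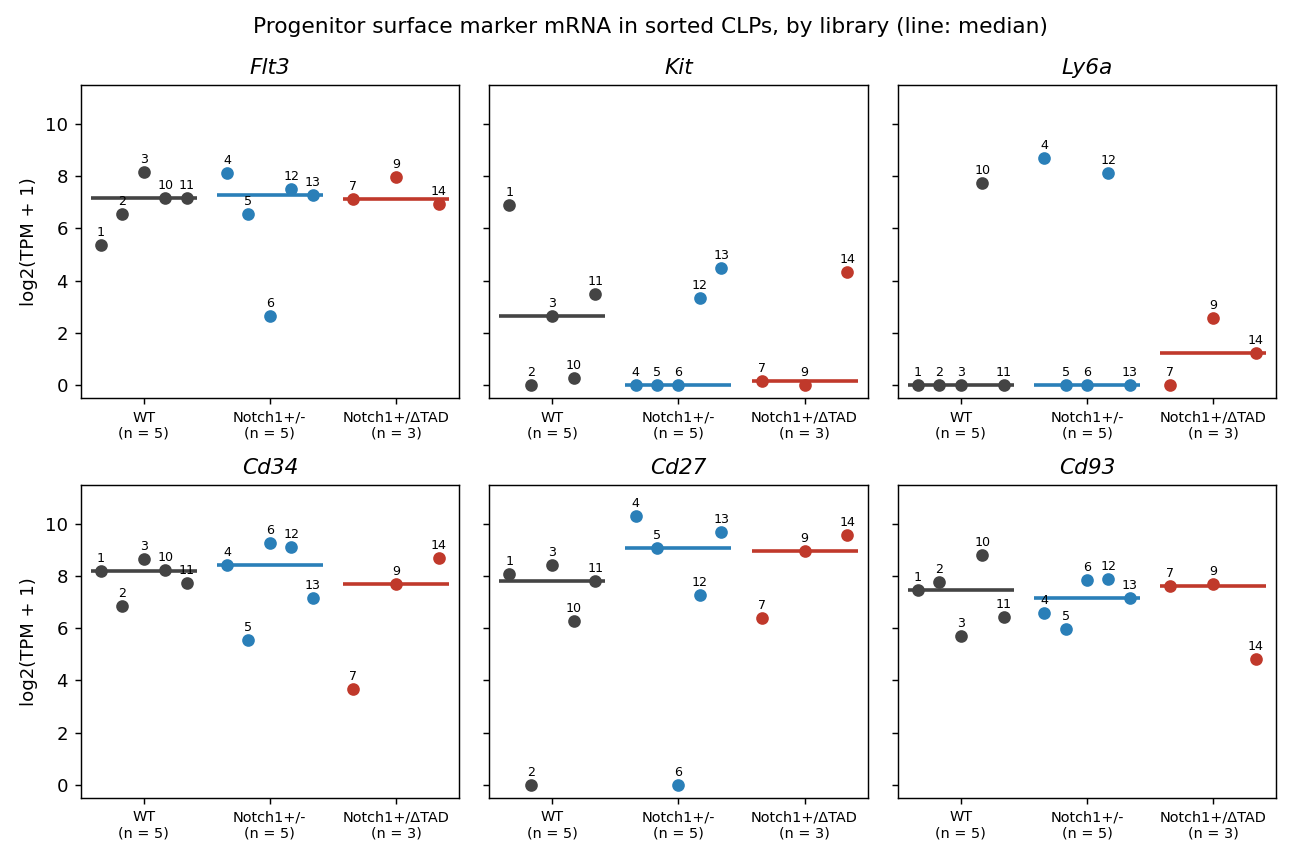
Levels of the 6 genes as log2(TPM + 1) (vertical axis) by genotype (horizontal axis; WT n = 5, Notch1+/- n = 5, Notch1+/ΔTAD n = 3). Each point is 1 library and mouse, with its library number above it, and the horizontal line is the group's median. In all 6 panels the points of the 3 genotypes overlap, and Notch1+/- library 6 is the lowest point for Flt3.

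In order of median TPM over the 13 libraries, the genes ranked Cd34 (294), Cd27 (266), Cd93 (178), Flt3 (142), Kit (0.201), and Ly6a (0). Neighbors among the first 4 did not differ beyond their spread. Cd34 was above Cd27 in 6 of 13 libraries, Cd27 above Cd93 in 8, and Cd93 above Flt3 in 6. Flt3 and Kit were set apart, in that order in 12 of 13 libraries, and Kit was above Ly6a in 6, below it in 4, and equal to it in 3. By mean TPM the order was Cd27 (386), Cd34 (279.7), Cd93 (166), Flt3 (148), Ly6a (70.7), and Kit (14.0). TPM divides by transcript length, whereas a 3′ tag library yields reads per transcript whatever its length. Multiplied by the length of the longest annotated coding transcript in kilobases, the median values ranked Cd93 (1186), Cd34 (750.2), Flt3 (518), Cd27 (414), Kit (1.05), and Ly6a (0). Kit and Ly6a were in the lowest 2 places under each of these 3 measures. Within genotypes, the highest median TPM was that of Cd34 in WT (294) and of Cd27 in Notch1+/- (544) and Notch1+/ΔTAD (499.5) libraries.

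Differences between genotypes were tested with limma on log2(TPM + 1), in a fit across all genes that reached 1 TPM in 3 libraries (5 for Notch1+/- against WT), and p-values were adjusted by the Benjamini-Hochberg method over all genes tested. None of the 6 genes passed an adjusted p under 0.05 in any comparison. In Notch1+/ΔTAD against WT CLPs, all 6 were among 4737 genes tested, 0 passed, and 0 had an unadjusted p under 0.05. Of all genes tested, 0% passed, 5% had an unadjusted p under 0.05, and 3.12% had groups without overlap, which was the case for 0 of the 6. In Notch1+/- against WT CLPs, 5 of the 6 were among 3178 genes tested, with 0 passing and 0 with an unadjusted p under 0.05, where the corresponding shares of all genes were 0% and 5.35%. Groups did not overlap for 0.787% of all genes and for 0 of these 5. Ly6a was not tested there, since it reached 1 TPM in 3 of 10 libraries. In Notch1+/ΔTAD against Notch1+/- CLPs, fitted with all 13 libraries, the counts were again 0 of 6, against 0%, 5.33%, and 3.06% of 6281 genes. The same fit without limma's mean-variance trend called 15, 2, and 3 genes in the 3 comparisons, and 0 of the 6 were among them.

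The intervals were wide. For Cd27 the log2 difference of Notch1+/ΔTAD from WT was 2.21, with a 95% interval from -1.48 to 5.90 (limma adjusted p = 0.972). Leaving out 1 library gave 0.68 to 3.17, and the lowest of these was without WT library 2 (limma adjusted p = 0.972), the WT library with Cd27 at 0. Cd34 had -1.23 (-3.64 to 1.18, limma adjusted p = 0.984) and Kit -1.16 (-5.33 to 3.01, limma adjusted p = 0.996). For Flt3, Cd93, and Ly6a the differences were 0.46 (-1.64 to 2.56), -0.55 (-2.91 to 1.82), and -0.29 (-4.06 to 3.48), with limma adjusted p-values of 0.996. The median log2 difference over all 4737 genes was 0.47, and it was -0.02 after quantile normalization. Under that scaling Cd27 had 2.14 and Cd34 had -1.52, so that neither changed direction.

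Between Notch1+/- and WT CLPs, Cd27 had a log2 difference of 1.16 (95% interval -3.02 to 5.34, limma adjusted p = 0.993) and Kit had -1.09 (-4.24 to 2.06, limma adjusted p = 0.993). The Cd27 value depended on the libraries at 0. Without Notch1+/- library 6 it was 2.98 (limma adjusted p = 0.907), and without WT library 2 it was -0.37 (limma adjusted p = 0.997). The intervals of Flt3 (-2.86 to 1.93), Cd34 (-1.78 to 1.72), and Cd93 (-1.99 to 1.68) included 0, and the mean difference of Ly6a, untested, was 1.82.

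The mutants, compared directly, differed by -2.10 for Ly6a (Notch1+/ΔTAD minus Notch1+/-, 95% interval -7.01 to 2.80), by -1.20 for Cd34 (-3.61 to 1.21), and by 1.05 for Cd27 (-3.11 to 5.21). The limma adjusted p-value of all 3 was 0.997. For Ly6a, leaving out 1 library gave -2.95 to -0.77, the latter without Notch1+/- library 4 and the former without library 6. Without Notch1+/- library 6 the Cd27 difference was -0.77, so its direction rests on that library, and the Flt3 difference went from 0.93 to -0.02. Within the libraries numbered 1 to 9 and 10 to 14 the groups hold as few as 1 mouse, so these ranges were entered as a term in the fit. With it the Cd27 differences were 2.32, 1.16, and 1.17 in the 3 comparisons, and again 0 of the 6 genes passed. The 3 comparisons share libraries, WT in the first 2 and each mutant in the third, so their values are not independent of each other.

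**Figure D3:**
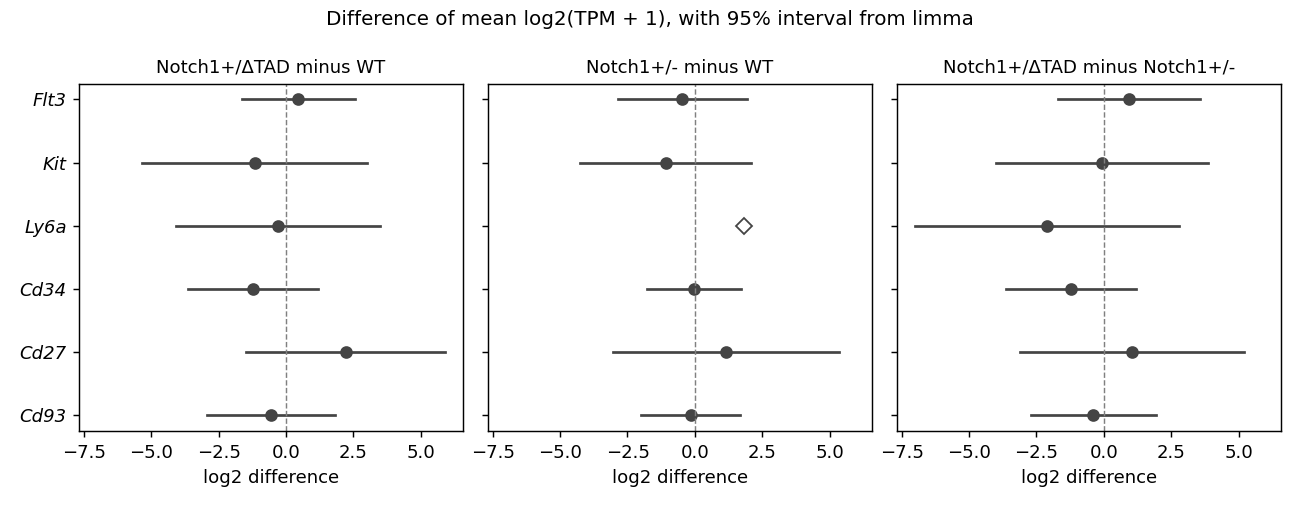
Difference in mean log2(TPM + 1) (horizontal axis) of each of the 6 genes (vertical axis) in the 3 comparisons, with the 95% interval from limma as a line. The open diamond is Ly6a between Notch1+/- and WT, which was below the minimum for the test and has no interval. All 17 intervals include 0 (dashed line).

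Each difference was also put to a 2-sided exact permutation test of mean log2(TPM + 1), with 6 genes in 3 comparisons. The 18 p-values ranged from 0.357 to 1, and all were 1 after Benjamini-Hochberg adjustment over the 18 tests. The design could give p-values as low as 0.0179 with 3 libraries against 5 and 0.0079 with 5 against 5. The smallest, 0.357, was that of Cd34 between Notch1+/ΔTAD and WT libraries, and the next was 0.411 for Cd27 in the same comparison.

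No joint rise and fall of the 6 genes from mouse to mouse could be shown with 13 libraries. Over 15 pairs of genes and 13 libraries, none of the correlations of log2(TPM + 1) passed after Benjamini-Hochberg adjustment over the 15 pairs. The strongest by rank was a negative one between Cd27 and Cd93, with Spearman's rho of -0.70 (permutation p = 0.0102, adjusted p = 0.154) and Pearson's r of -0.50 (permutation p = 0.0802, adjusted p = 0.602). Leaving out the 2 libraries farthest from the median of Cd27, r was -0.62, and in the 8 libraries numbered 1 to 9 it was -0.60. Flt3 and Cd27 had an r of 0.66 (permutation p = 0.0218, adjusted p = 0.327) and a rho of 0.44 (permutation p = 0.138, adjusted p = 0.552), and r was 0.49 without the 2 libraries farthest from the median of Flt3. Flt3 and Kit, the 2 receptor tyrosine kinases, had an r of 0.00 and a rho of 0.02 (permutation p = 0.998 and 0.948). The libraries numbered 10 to 14 are 5, too few for a correlation.

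For each gene, the 2 genes of most similar pattern were found by Spearman's rho over the 13 libraries, among 2423 genes at 1 TPM or more in at least 8 libraries. They were picked as the highest of many values and are given as a description, with no test. Kit and Ly6a were at 0, and so tied in rank, in 5 and 8 libraries. Flt3 was followed most closely by Psmd14 (rho 0.85) and Ppp1cb (0.83), and Kit by Surf4 (0.87) and Pgap2 (0.85). For Ly6a these were Acap1 (0.87) and Tmem50a (0.86), and for Cd34 Supt4a (0.82) and Nrgn (0.79). Cox14 (0.85) and Itprip (0.83) were nearest to Cd27, and Rab18 and Tsn (both 0.80) to Cd93. Pearson's r of these pairs was 0.59 to 0.89.

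Ligands of the receptors were scarcely listed in the sorted cells. Kitl, which encodes stem cell factor, and Cd70, the ligand of CD27, were at 0 in all 13 libraries. Flt3l, which encodes FLT3 ligand, was above 0 only in WT library 1 (44.2 TPM) and WT library 10 (24.9 TPM). Among the class III receptor tyrosine kinases related to FLT3 and KIT, Csf1r, the M-CSF receptor, was above 0 in all 13 libraries at 0.174 to 168 TPM, whereas Pdgfra was at 0 throughout and Pdgfrb reached 20.9 TPM in 1 library.

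Of 39 genes that act with FLT3 and KIT, 25, 14, and 28 were tested in Notch1+/ΔTAD against WT, Notch1+/- against WT, and Notch1+/ΔTAD against Notch1+/-, and 0 passed in each. The median log2 difference of the list was 0.07, -0.47, and 0.64, beside 0.47, 0.06, and 0.35 over all genes tested. The adaptor gene Grb2 was the most abundant of them, at 83.5 to 717 TPM, and its log2 differences were -0.09, -0.05, and -0.04. Akt1 was at 0 to 426 TPM, and Pik3cd, the PI3K catalytic subunit of leukocytes, at 2.42 to 315 TPM. Against WT their differences were -2.25 and -1.26 in Notch1+/ΔTAD and -1.96 and -2.17 in Notch1+/- (limma adjusted p from 0.958 to 0.978). Akt1 was under 1 TPM in Notch1+/ΔTAD library 9 and at 0 in Notch1+/- library 5. Its median was 160 TPM in Notch1+/ΔTAD, 158 TPM in WT, and 94.8 TPM in Notch1+/- libraries. The medians of Pik3cd were 83.7, 157, and 67.4 TPM in the same order. Pik3cd was 6.5 and 2.42 TPM in Notch1+/- libraries 5 and 12, and its highest value was in Notch1+/- library 6. Their differences without these libraries are not reported here. Lyn, which encodes a SRC family kinase, was 8.63 to 138 TPM in Notch1+/ΔTAD and 0 to 45.8 TPM in WT libraries, with a difference of 4.38 (SE 1.99, limma unadjusted p = 0.0452, adjusted p = 0.952). Lyn was named after its values were seen.

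**Figure D4:**
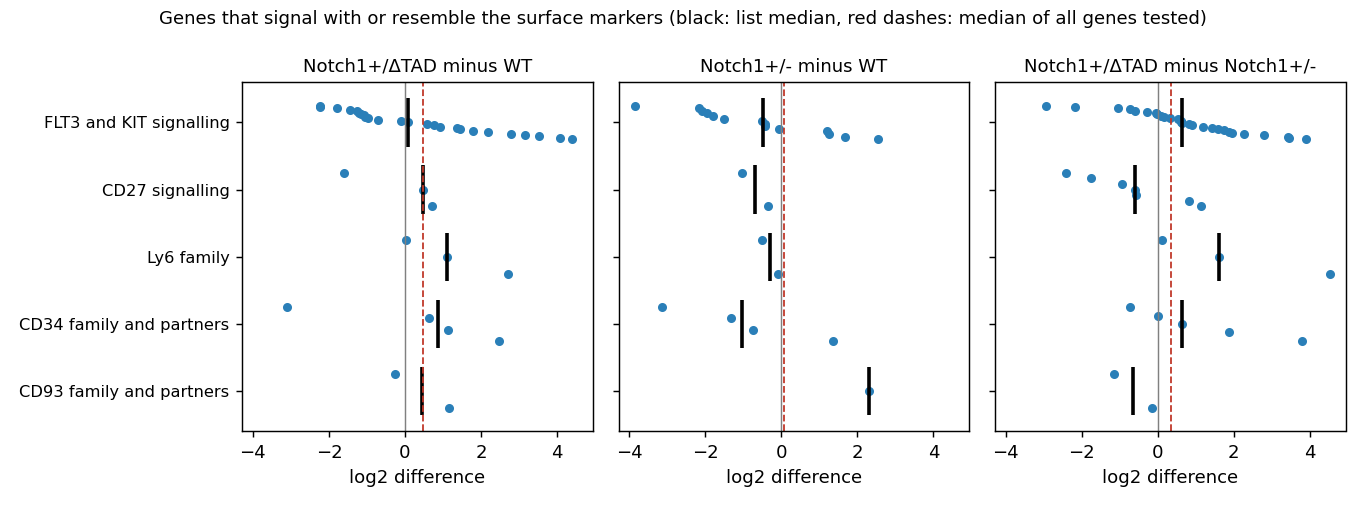
Log2 differences (horizontal axis) of the tested genes of 5 lists (vertical axis) that signal with the 6 genes or resemble them, in the 3 comparisons. Each point is a gene, the black bar is the list's median, and the red dashed line is the median of all genes tested. Points lie on both sides of 0 in the list of FLT3 and KIT signaling, and 0 of the genes shown passed the threshold.

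Downstream of CD27, 5 of 16 genes were at 0 in all libraries, among them Traf2, Traf5, and Map3k14, whose products connect the receptor to NF-κB. The list had 3, 2, and 7 tested genes in the 3 comparisons, 0 of which passed, with medians of 0.47, -0.69, and -0.60. Siva1, which encodes a protein that binds the CD27 tail, was the most abundant at 0 to 292 TPM (log2 difference of Notch1+/ΔTAD from WT 0.47, SE 2.2). Birc2 reached 129 TPM and Ikbkb 97.7 TPM, and both had a median under 1 TPM.

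Among the 15 genes in the table that belong to the Ly6 family of Ly6a, 10 were at 0 in all libraries and 2 were above 0 in all, Ly6e at 873 to 2160 TPM and Ly6d at 194 to 2559 TPM. Ly6d marks the CLPs that are turning to the B lineage. It was 1801 to 2302 TPM in Notch1+/ΔTAD and 194 to 1538 TPM in Notch1+/- libraries, without overlap, with a log2 difference of 1.62 (SE 0.74, limma unadjusted p = 0.0403, adjusted p = 0.932). The WT range of 271 to 2559 TPM included all Notch1+/ΔTAD values. Ly6c2 had a log2 difference of 4.52 between the mutants (SE 1.95, limma unadjusted p = 0.0301, adjusted p = 0.932), with 153 TPM in Notch1+/ΔTAD library 7, 77.4 TPM in library 14, and 0 in library 9 and all Notch1+/- libraries. Its highest value of all was in WT library 11, at 280 TPM, and WT library 3 had 0.937 TPM. Ly6c2 met the minimum for testing, 1 TPM in 3 libraries, with no Notch1+/- library among them. Its p-values between the mutants are therefore no support for a difference. The difference of Notch1+/ΔTAD from WT was 2.70 (SE 2.41, limma adjusted p = 0.984). The list's counts of tested genes were 3, 2, and 3, with 0 passing and medians of 1.12, -0.29, and 1.62.

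Of 8 relatives and partners of CD34, 4, 4, and 5 genes were tested and 0 passed, with medians of 0.88, -1.03, and 0.65. Spn, the sialomucin CD43, was above 0 in all 13 libraries, at 0.908 to 515 TPM. Selplg, which encodes PSGL-1, was above 0 in 10 libraries. Podxl and Podxl2, the closest relatives of Cd34, were at 0 in all. Of 7 genes related to Cd93 or known to act with it, Cd248, Clec14a, Mmrn2, and Igfbp7 were at 0 in all libraries, and Thbd reached 38.3 TPM in 1 of the 4 libraries that listed it. Msn, which encodes moesin, was above 0 in 12 libraries, with a log2 difference of 2.31 (SE 1.61, limma adjusted p = 0.978) between Notch1+/- and WT. Of the genes of the lineage proteins that were used to exclude cells, 6 of 10 were at 0 in all libraries, and among the others Cd4 reached 187 TPM and Itgax 96.2 TPM.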

How the data were processed

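Total RNA of sorted BM CLPs was extracted with the PicoPure kit and made into libraries with the strand-specific QuantSeq 3′ FWD kit. The cell number per sample in the labels differs from that in the study's methods. Reads were trimmed, STAR alignments to mm10 followed, and the authors deposited decimal TPM in a table for Notch1+/- and another for Notch1+/ΔTAD, with the same WT values in both. The tool, annotation, and filter behind the TPM are not given in the sources used here. Values were set to log2(TPM + 1), a scale that understates the change of low genes, and compared with R 4.3.3 and limma 3.58.1 (lmFit, eBayes with trend, 2-sided, Benjamini-Hochberg threshold of 0.05). The mutants were compared in 1 model of 13 libraries. Exact permutation tests, and correlations with 100000 permutations, were run in Python 3.11.15 with scipy 1.17.1. The limma fit was checked on simulated normally distributed values, with changes larger than those of the 6 genes, and smaller changes were not simulated. The exact test was checked on made-up groups with complete separation, and the correlation permutations were not checked. P-values measure the spread between mice. Gene positions are those of GENCODE M21 (GRCm38, equal to mm10). Named genes are the 6 genes, Il7r, the 3 genes of highest mean in each list, and the 2 most alike in pattern. Others were added after their values were seen. A few genes that this rule names are not reported here. The 6 genes and all lists were chosen with earlier results of these data known. The alternatives tried were pseudocounts of 0.1 and 10, a filter on genes above 0 or on a mean of at least 10 TPM, median-ratio scaling, quantile normalization, eBayes without trend, a term for library numbers, 1 model of 13 libraries, an unadjusted threshold, and leaving out each library in turn.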

Additional observations from a re-analysis of the deposited data

Results flagged for a closer look

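In 18 groups of 5 values (the 6 genes, Il7r, the number of the 6 genes above 0, and their summed TPM, in WT or Notch1+/- mice), the gap of the highest or lowest value to the nearest other was divided by the range of the group and set against Dixon's critical value of 0.71. It was exceeded in 2 groups, where chance gives about 1 in 20, or 0.9. Kit was 117.5 TPM in WT library 1, while the other 4 WT libraries had 0 to 10.1 TPM. Ly6a was 215.0 TPM in WT library 10 and at 0 in the other 4 WT libraries. This rate assumes a normal distribution, from which a group with 4 values of 0 is far removed. Without WT library 1 the log2 difference of Kit from WT went from -1.16 to -0.10 for Notch1+/ΔTAD and from -1.09 to -0.03 for Notch1+/-.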

How the results depend on the processing

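Of 342 values of the log2 differences under the alternatives, 313 kept their direction and 29 turned it. Of these values 325 had a limma test, of which 0 passed, and 17 did not, all of Ly6a (16 for Notch1+/- and 1 for Notch1+/ΔTAD against WT). Among those of the 6 genes that were tested, the count that passed was 0 in each comparison and alternative, including an unadjusted p under 0.05. By the exact tests the count was also 0, but there a single gene could not pass after adjustment. For Notch1+/ΔTAD against WT, Ly6a became 0.95 with a pseudocount of 0.1, and leaving out 1 library gave -0.93 to 1.26 for Ly6a, -2.24 to 0.27 for Cd34, 0.68 to 3.17 for Cd27, and -1.04 to 0.40 for Cd93. For Notch1+/- against WT, quantile normalization gave 0.015 for Flt3 and 0.013 for Cd34, and median-ratio scaling gave 0.0014 for Cd34. Leaving out 1 library gave -0.90 to 0.48 for Flt3, -0.37 to 0.56 for Cd34, -0.37 to 2.98 for Cd27, and -0.54 to 0.23 for Cd93. For Notch1+/ΔTAD against Notch1+/-, Kit became 0.027 and 0.0026 with pseudocounts of 0.1 and 10, 0.068 with quantile normalization, and 0.058 with a term for library numbers. Leaving out 1 library gave -0.020 to 1.36 for Flt3, -1.49 to 0.67 for Kit, -2.95 to -0.77 for Ly6a, -2.21 to 0.31 for Cd34, -0.77 to 2.01 for Cd27, and -0.88 to 0.55 for Cd93. By mean TPM, and by TPM multiplied by transcript length, 2 of 6 genes kept their place in the order of levels. Apart from the left-out libraries, the cause was not tested. No paired analysis was possible because library numbers are not shared between genotypes. Depth is unknown, so it cannot be said which values of 0 come from few reads.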

Other observations

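Il7r, whose protein was used in the sort beside those of Flt3, Kit, and Ly6a, differed by library number in the direction opposite to Kit. It was 1.07 to 53.9 TPM (median 11.4) in the 5 libraries numbered 10 to 14 and 0 to 184 TPM (median 116) in the 8 numbered 1 to 9. Kit had medians of 10.1 and 0 TPM in the same ranges. Flt3 had medians of 144 and 116 TPM and Cd34 of 295 and 250 TPM. These ranges were compared after the values were seen, no test was run on them, and the labels do not name them as batches.

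Genes of rare blood lineages were listed in single mice. Cpa3, a mast cell protease gene, was 307 TPM in WT library 3 and 0 in the other 12 libraries, and Mcpt8, a basophil protease gene, was 117 TPM in Notch1+/ΔTAD library 9 alone. Kit, which mast cells express strongly, was 5.18 TPM in WT library 3 and listed at 0 in Notch1+/ΔTAD library 9. The source of the Cpa3 and Mcpt8 values was not tested. Ms4a2 and Fcer1a, which encode subunits of the high-affinity IgE receptor, were at 0 in all 13 libraries.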
